A study of Mus musculus with 180 samples.

Results

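AMPA receptors are the glutamate-gated channels that carry most fast excitatory transmission in the brain. Their transcripts were followed here through the hippocampus of mice that were or were not trained and that then slept or were kept awake. The 8 genes described are 4 pore-forming subunits (Gria1, Gria2, Gria3 and Gria4) and 4 auxiliary proteins (the cornichon genes Cnih2 and Cnih3, and Shisa6 and Shisa9). They were chosen by name, though with earlier results of these data known. All 8 were found among the 54429 genes of the count table, and all 8 passed the filter on low counts in every comparison.

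Ribosome-bound RNA was purified by translating ribosome affinity purification from 30 male mice, and 6 libraries were made from each mouse, 180 in all. Every mouse, controls included, came from the line B6.Cg-Tg(Camk2a-cre)T29-1Stl crossed with B6N.129-Rpl22tm1.1Psam/J, so that cells with Cre under the Camk2a promoter put a haemagglutinin (HA) tag on the ribosomal protein Rpl22. The Camk2a capture pulled tagged ribosomes down with anti-HA antibody, the pS6 capture pulled down ribosomes with phosphorylated ribosomal protein S6 (residues 244-247), a mark of recently active neurons, and Input was not captured. Each was taken from the supernatant, called cytosolic, and from the resuspended pellet, called membrane. The mice formed 4 groups: 8 untrained mice that slept (NoCFC Sleep), 7 untrained mice that were sleep deprived (NoCFC SD), 8 mice with contextual fear conditioning that slept (CFC Sleep) and 7 conditioned, sleep-deprived mice (CFC SD). The age of the mice and the length of the deprivation are not given in the labels used here. The labels give the tissue as brain and the study's title names the hippocampus.

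An AMPA receptor is an assembly of GRIA subunits around a shared pore, and the mix of subunits sets its conductance and its permeability to calcium. Edited GRIA2 makes the receptor nearly impermeable to calcium, through a glutamine codon in the pore (the Q/R site) whose transcript is recoded to arginine. Cornichons help receptors leave the endoplasmic reticulum and slow their closing, SHISA6 keeps synaptic receptors from desensitizing, and SHISA9 shapes short-term plasticity in the dentate gyrus. In the hippocampus, pyramidal cells mainly use GRIA1 and GRIA2 with some GRIA3, whereas GRIA4 is known from interneurons.

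The stretch around the Q/R codon shows how alike the 4 subunit genes are where the pore is coded. Each stretch is 54 bases of a coding exon, given 5′ to 3′ on the gene's own strand from the GENCODE transcripts of GRCm38, and the capitals mark the Q/R codon. The positions are chr11:57243064-57243117 (plus strand) for Gria1, chr3:80706890-80706943 (minus) for Gria2, chrX:41610235-41610288 (plus) for Gria3 and chr9:4464116-4464169 (minus) for Gria4.
Gria1: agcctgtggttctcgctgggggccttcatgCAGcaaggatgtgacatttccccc
Gria2: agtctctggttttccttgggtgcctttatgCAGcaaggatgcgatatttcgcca
Gria3: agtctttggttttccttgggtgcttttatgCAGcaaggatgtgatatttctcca
Gria4: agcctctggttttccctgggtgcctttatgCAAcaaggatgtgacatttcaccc
Gria2 and Gria3 differed at 4 of the 54 bases, the fewest of the 6 pairs, and Gria1 differed from Gria2 and from Gria3 at 11 each. The codon is CAG in 3 genes and CAA in Gria4, both glutamine, since genomic sequence shows no editing, and gene counts do not read the edited base. Over the whole annotated transcripts the genes were distinct: 15 stretches of 50 bases in Gria2, 11 in Gria3 and 10 in Gria4 also occurred in another of the 8 genes, and none did in Gria1, the cornichons or the Shisa genes.

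The genes lie apart in the genome. Gria1 spans chr11:57011387-57330244, Gria2 chr3:80681450-80802835, Gria3 chrX:41400854-41678601 and Gria4 chr9:4417896-4796234. Cnih2 spans chr19:5092868-5098521, Cnih3 chr1:181352628-181460641, Shisa6 chr11:66211725-66525964 and Shisa9 chr16:11984113-12270902. Exons of Cnih2 overlap exons of Yif1a on the opposite strand, and whether strand was used in counting is not given in the sources used here, so Cnih2 values may include Yif1a reads. Gria2, Gria3 and Gria4 overlap small predicted genes of the same strand.

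Libraries held between 11.98 and 26.95 M (mega) counts. The scarcest member, Gria4, had between 215 and 1789 counts in a library, and Cnih2 had between 9155 and 59676. Comparisons of the 4 groups used 30 libraries of a type. Mouse numbers form 3 runs: mice 1 to 11 were all untrained, mice 12 to 22 were all trained, and mice 23 to 30 held 2 of each group. The labels do not say what a run stands for.

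In 4 Input libraries the levels of some members stood apart from those of other mice. Shisa6 and Shisa9 lay outside the range of the others in all 4, and Cnih2 and Cnih3 in none. The mean of the membrane Input of mice 16, 22 and 30 lay over 3 SD from the other 27 libraries for 1695 of 15302 genes, against 0 to 2 genes in the 5 other library types of the same mice. The cytosolic Input of mouse 6 did so for 1573 genes, against 59 to 242 in its other types. In membrane Input, Shisa6 was at 96.2, 81.7 and 114 CPM (counts per M counts of the library) in mice 16, 22 and 30, below the 120 to 193 of the others. Gria1 made up 57.2, 55.0 and 57.8% of the subunit transcripts there, below the 61.4 to 69.0% of the others, and summed excitatory-neuron markers were at 4018, 3696 and 4123 against 4175 to 5991 CPM. Summed oligodendrocyte markers were at 6798, 7016 and 7142 against 4962 to 6860 CPM and microglial markers at 783.7, 727 and 783.8 against 568.1 to 747.1 CPM, each with 2 of 3 above all others. In the cytosolic Input of mouse 6, astrocyte (1501 against 1140 to 1492 CPM) and oligodendrocyte markers (3453 against 2187 to 3420 CPM) were above those of all other mice. All 3 membrane libraries came from conditioned mice, and the 4 were picked with the members' levels in view. Comparisons with Input were therefore also run without these 4 libraries.

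Marker genes placed the captures as the labels do, with limits. Against Input, 10 of 11 inhibitory-neuron markers were lower in the cytosolic Camk2a capture (median log2 difference -3.45) and 9 of 11 in the membrane one (-1.31, with 1 higher), and 7 of 7 astrocyte markers were lower in both. CA1 pyramidal markers were higher for 3 and 4 of 5. None of the listed markers was at 0 in every library. Summed inhibitory markers ran from 515 to 811 CPM in cytosolic and from 2011 to 3465 CPM in membrane Camk2a libraries. In Input they ran from 919.6 to 1188 CPM in cytosolic and from 1773 to 2570 CPM in membrane libraries. The sum was thus below Input in cytosolic Camk2a, whereas in membrane Camk2a it overlapped Input and reached above it. Mitochondrial transcripts averaged 0.979% of counts in membrane and 0.0140% in cytosolic Camk2a libraries, 1.15% and 0.0416% in pS6, and 7.29% and 0.978% in Input. Summed choroid plexus markers varied widely, from 36.9 to 13890 CPM among membrane pS6 libraries.

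Per kilobase, by each of the 3 transcript lengths tried, Gria1 and Gria2 were the most abundant subunit genes in every library type and Gria4 the least. Levels are CPM on library sizes scaled over all 180 libraries, as the lowest, median and highest of 30 mice, and a level in bulk RNA cannot tell fewer cells of a type from less RNA per cell. Gria1, the subunit recruited in long-term potentiation, was at 558, 720 and 875 CPM in cytosolic Camk2a and at 1402, 1751 and 2080 CPM in membrane Camk2a. Gria2, which sets calcium permeability, was at 543, 781 and 1007 CPM and at 1457, 1863 and 2373 CPM. Every membrane library of either gene lay above every cytosolic one. In Input the same genes were lower: Gria1 had medians of 586 (cytosolic) and 999 CPM (membrane), and Gria2 413 and 954 CPM. For cytosolic Gria1 this order depended on the scaling. By library size alone its mean was 677.5 CPM in cytosolic Camk2a and 683.5 CPM in cytosolic Input. Gria3, the third pyramidal-cell subunit, averaged 133 ± 15.6 CPM in cytosolic and 363 ± 39.0 CPM in membrane Camk2a libraries (SD, n = 30), and 82.0 ± 8.86 and 182 ± 17.3 CPM in Input (SD, n = 30).

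Gria4, Cnih2, Cnih3 and Shisa6 were higher in the pS6 than in the Camk2a capture. Gria4 was at 13.3, 17.9 and 26.6 CPM in cytosolic Camk2a, at 26.4, 32.1 and 47.6 CPM in cytosolic pS6 and at 22.7, 27.7 and 40.9 CPM in cytosolic Input. Only the extremes of its Camk2a and pS6 ranges met. Cnih2 was at 545, 685 and 870 CPM in cytosolic Camk2a against 1419, 1744 and 2173 CPM in cytosolic pS6, with no overlap, and at 732, 936 and 1140 CPM in cytosolic Input, which overlapped Camk2a but not pS6. Cnih3 showed the same separation, at 120, 136 and 149 CPM in cytosolic Camk2a and 238, 307 and 347 CPM in cytosolic pS6. Shisa6 was at 63.0, 84.9 and 111 CPM against 98.5, 130 and 162 CPM, which overlapped.

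Shisa9 had the opposite order. Its cytosolic levels were 38.7, 49.8 and 60.3 CPM in Camk2a and 22.4, 32.3 and 38.0 CPM in pS6, with no overlap, and its membrane levels were 88.0, 130 and 159 CPM in Camk2a and 62.1, 86.5 and 128 CPM in pS6, which overlapped.

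**Figure D1:**
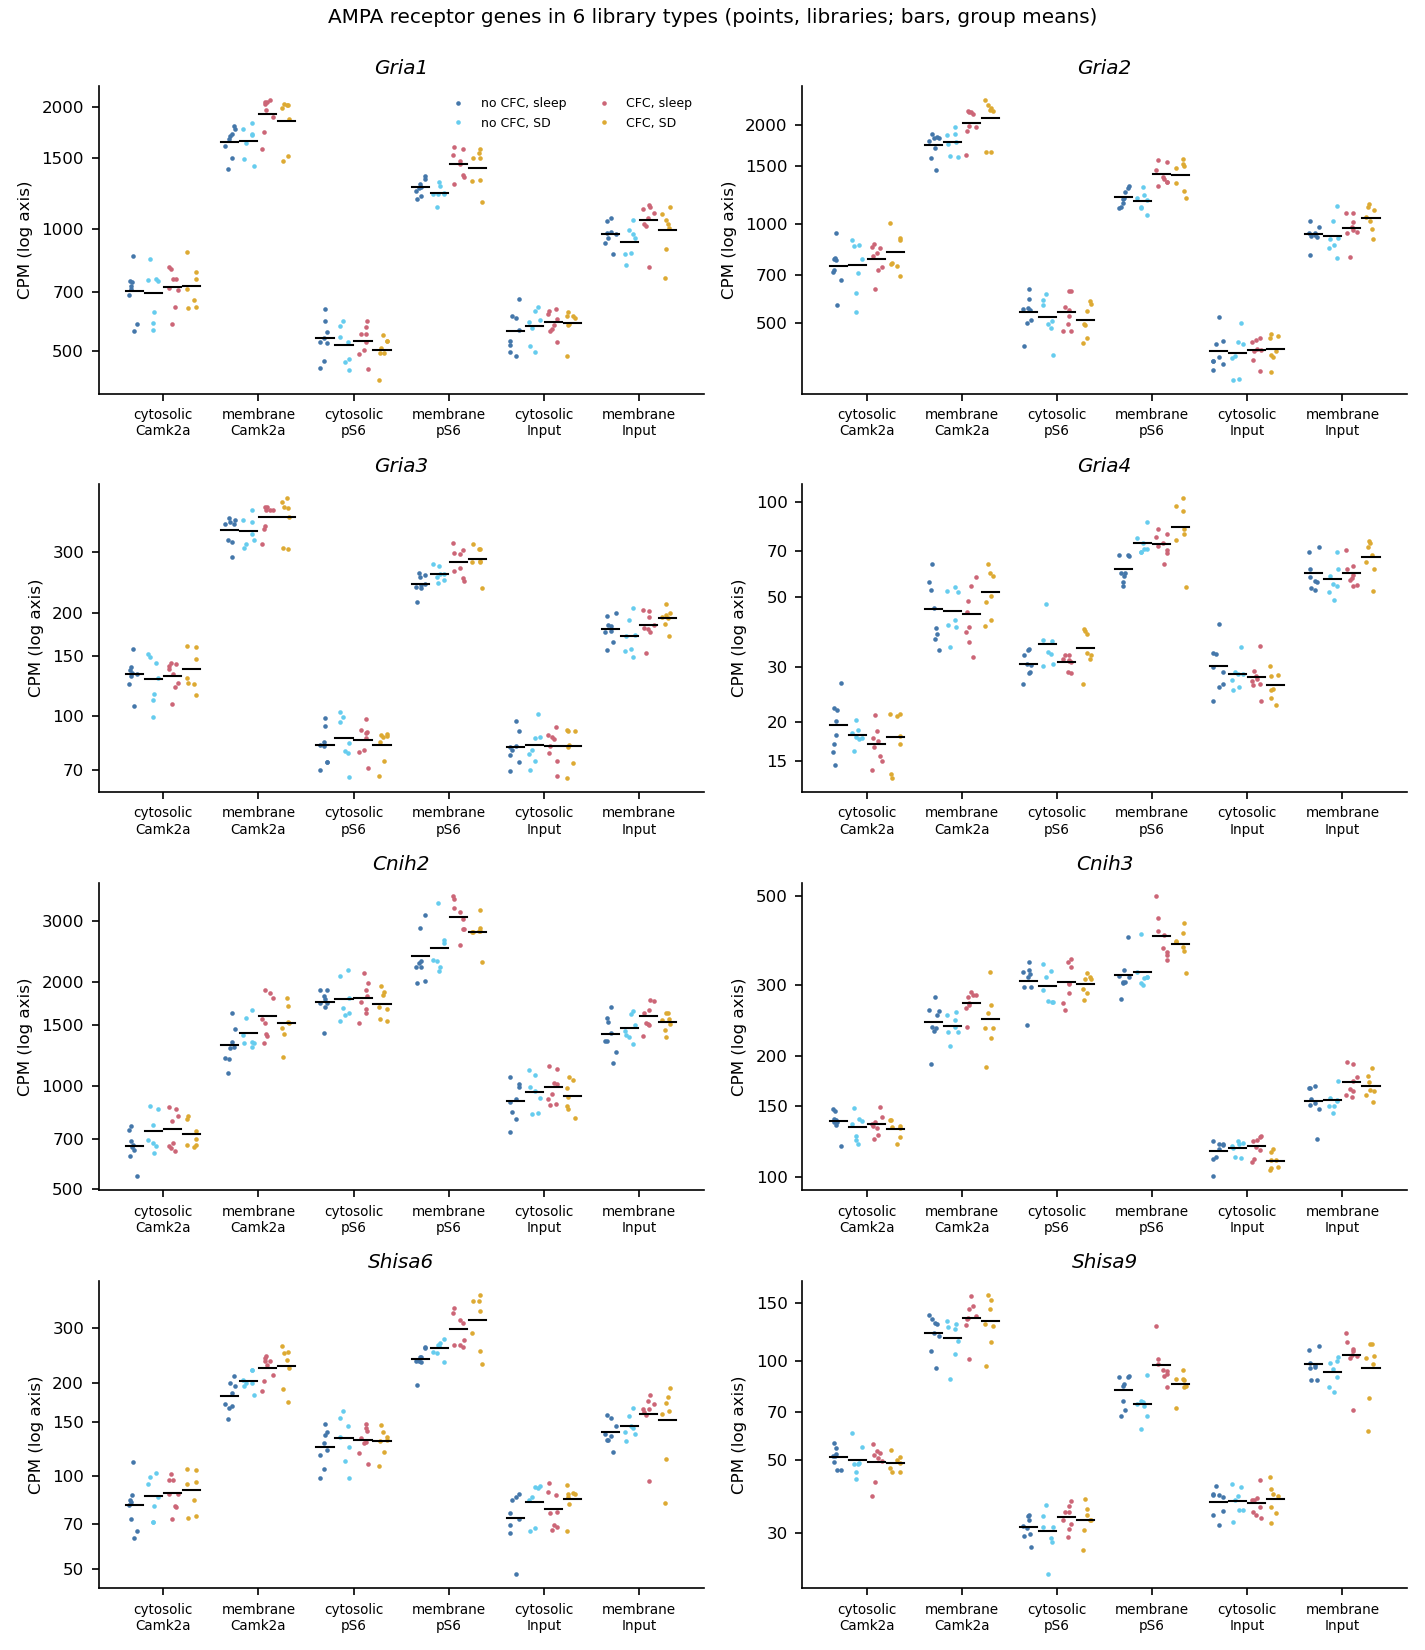
Level of each of the 8 genes (CPM, log axis) in every library, by library type, with points for single mice and bars for the means of the 4 groups. Subunits Gria1, Gria2 and Gria3 sit highest in membrane Camk2a libraries, while Cnih2 and Cnih3 sit highest in pS6 libraries.

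Between genes, levels were compared per kilobase of exon union. In cytosolic Camk2a the order was Cnih2 at 525, Gria1 at 117, Gria2 at 49.98, Cnih3 at 49.0, Gria3 at 13.4, Shisa6 at 11.6, Shisa9 at 9.52 and Gria4 at 2.89 CPM per kb. The ranges over mice of 3 neighbouring pairs overlapped, Gria2 with Cnih3, Gria3 with Shisa6 and Shisa6 with Shisa9, and those of the other neighbours did not. In cytosolic pS6 Cnih3, at 110 CPM per kb, stood above Gria1 at 86.5 and Gria2 at 34.1 CPM per kb. Gria4 was last there too, at 5.19 CPM per kb, with a range overlapping that of Shisa9 at 6.10 CPM per kb. These orders depend on the transcript length chosen. By the shortest curated transcript, Cnih3 (223.8) stood above Gria2 (193) and Gria1 (132.3 CPM per kb) in cytosolic Camk2a too. Shisa6 (54.6) then stood above Gria3 (49.7) there, and Gria4 (13.98) above Shisa9 (9.34 CPM per kb) in cytosolic pS6.

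Expressed as a share of the 4 subunits per kilobase, Gria1 made up 63.9% and Gria2 27.2% in cytosolic Camk2a, with nearly the same in the membrane fraction (63.7 and 26.6%). Gria3 held 7.32 and 8.05% there. The share of Gria4 was 1.6% in cytosolic and 1.62% in membrane Camk2a, and it was 3.88 and 3.34% in pS6 and 3.33 and 3.80% in Input. Over mice it ran from 0.969 to 2.67% in Camk2a libraries and from 2.59 to 5.01% in the others, so the ranges met over a narrow band. Cytosolic Input had the highest share of Gria1, at 70.8%, and the lowest of Gria2, at 19.7%. These shares depend on the transcript length chosen: by the shortest curated transcript Gria2 (50.3%) exceeded Gria1 (34.6%) in cytosolic Camk2a, while Gria4 stayed lowest at 2.07%.

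**Figure D2:**
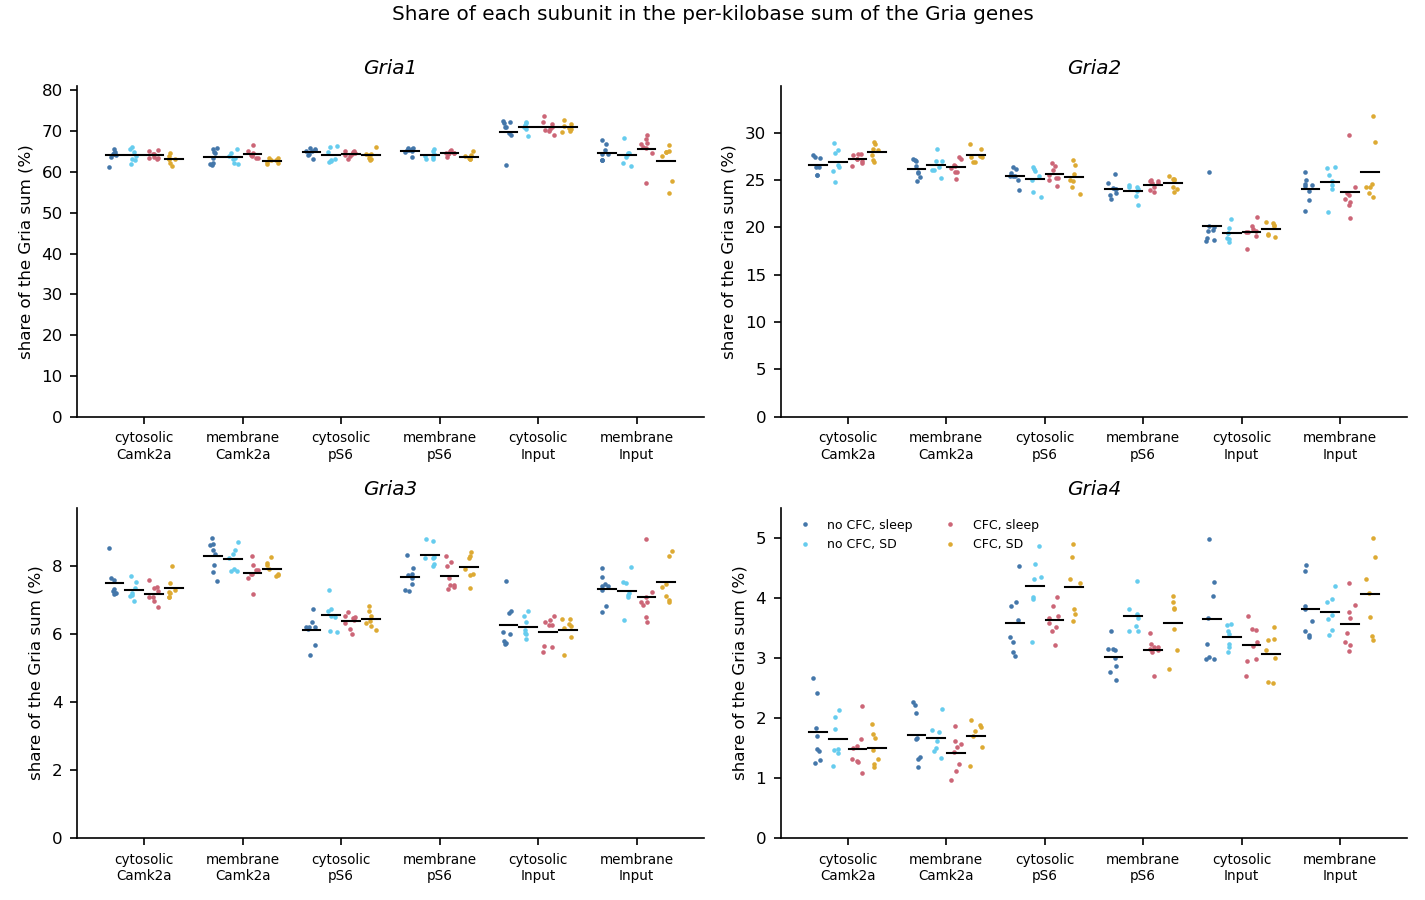
Share of Gria1 to Gria4 in their summed CPM per kb (percent), by library type, each point 1 mouse and each bar a group mean. Gria4 averages 1.6 and 1.62% in the Camk2a types and between 3.33 and 3.88% in pS6 and Input.

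All 8 genes were higher in membrane than in cytosolic libraries, in the Camk2a, pS6 and Input libraries alike. For Cnih3 in pS6 this depended on the scaling. Differences are log2 fold changes ± standard error from edgeR's quasi-likelihood test with Benjamini-Hochberg adjustment over all genes tested, where 1 is a fold of 2, and each fit scales its own libraries, so that they need not equal ratios of the CPM above. A gene was called where its adjusted p was under 0.05 and its fold at least 2. In the Camk2a capture 7 of 8 members were called higher in the membrane fraction, beside 27.9% of all genes tested. Gria3 had the largest difference, 1.56 ± 0.04, followed by Gria4 at 1.46 ± 0.06, Shisa9 at 1.45 ± 0.04, Gria1 at 1.41 ± 0.04, Gria2 at 1.39 ± 0.05, Shisa6 at 1.37 ± 0.05 and Cnih2 at 1.12 ± 0.04. Cnih3, at 0.99 ± 0.03, missed the fold required. The median over all genes was -0.07.

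The cornichon genes were the least shifted members in the pS6 capture too. There 6 of 8 members were called higher in the membrane fraction (25.3% of all genes), from Gria3 at 1.69 ± 0.04 through Gria4 at 1.17 ± 0.04 down to Shisa6 at 1.12 ± 0.05. Cnih2 differed by 0.63 ± 0.04 and Cnih3 by 0.24 ± 0.04, and Cnih3 was higher in the membrane library in 24 of 30 mice. By library size alone, mean Cnih3 was 330.6 CPM in cytosolic and 334.2 CPM in membrane pS6, so its difference there depended on the scaling. The members called in the Camk2a and pS6 captures were higher in 30 of 30 mice.

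In Input 4 of 8 members were called (22% of all genes): Shisa9 at 1.39 ± 0.05, Gria2 at 1.23 ± 0.04, Gria3 at 1.16 ± 0.04 and Gria4 at 1.11 ± 0.04. Gria1 differed by 0.78 ± 0.04, Cnih2 by 0.67 ± 0.04, Cnih3 by 0.50 ± 0.03 and Shisa6 by 0.91 ± 0.06 without reaching the fold. Scaling by library size alone lowered the Input count to 1 and moved the all-gene median from -0.12 to -0.38, as it did from -0.07 to -0.33 in Camk2a and from -0.03 to -0.26 in pS6. Adjusted p alone was under 0.05 for 90.2, 85.4 and 88.6% of all genes in Camk2a, pS6 and Input.

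The other genes of the pathway divided by role. TARPs, transmembrane proteins that anchor and gate the receptor, were called higher in the membrane fraction for 6 of 6 in Camk2a, 5 of 6 in pS6 and 5 of 6 in Input. Cacng4 stood at 3.04 ± 0.10, Cacng8, the main hippocampal TARP, at 2.45 ± 0.06 and Cacng2 (stargazin) at 1.64 ± 0.04 in Camk2a. The secreted or membrane-held pentraxins Nptx1, Nptx2 and Nptxr were called higher for 3 of 3 in all 3 comparisons. Other auxiliary and biogenesis genes were called higher for 7, 7 and 6 of 10, with Abhd6, a lipase known to limit surface delivery of the receptor, at 1.76 ± 0.04 in Camk2a. Of 11 trafficking and scaffold genes, which code for proteins inside the cell, none was called higher, and 2, 1 and 2 were called lower.

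The captures differed from Input by subunit. Membrane Camk2a libraries held more Gria1 (0.74 ± 0.04), Gria2 (0.87 ± 0.03), Gria3 (0.90 ± 0.03) and Cnih3 (0.52 ± 0.03), and less Gria4 (-0.48 ± 0.05) and Cnih2 (-0.14 ± 0.04). Shisa6 was at 0.38 ± 0.06 and Shisa9 at 0.28 ± 0.05, and all 8 had an adjusted p under 0.05 (82.7% of all genes did). None reached a fold of 2, which 1.9% of all genes did upwards and 16.8% downwards. Gria1, Gria2, Gria3, Cnih3 and Shisa6 were higher than Input in 30 of 30 mice, and Gria4 was lower in 30 of 30.

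Cytosolic Camk2a libraries held more Gria2 (0.73 ± 0.05), Gria3 (0.51 ± 0.04), Shisa9 (0.23 ± 0.04) and Gria1 (0.12 ± 0.04), and less Gria4 (-0.81 ± 0.05) and Cnih2 (-0.58 ± 0.04). Cnih3 was at 0.04 ± 0.02 (adjusted p = 0.103) and Shisa6 at -0.06 ± 0.05 (adjusted p = 0.265). An adjusted p under 0.05 was reached by 6 of 8 (81.7% of all genes), and again none was called, beside 0.371% of all genes called higher and 16.5% lower. With library sizes alone Gria1 turned to -0.014 (adjusted p = 0.742) and Cnih3 to -0.10 (adjusted p = 3.6e-05), and the all-gene median went from -0.03 to -0.17, so the signs for these genes depend on the scaling.

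Cnih3 was the member that the pS6 capture held most above Input. It differed by 1.34 ± 0.03 in the cytosolic fraction and by 1.03 ± 0.03 in the membrane fraction, the only member called in either (11.4 and 7.23% of all genes were called higher), though a test against the fold of 2 itself did not pass in the membrane fraction. Cnih2 differed by 0.85 ± 0.04 and 0.75 ± 0.04 and Shisa6 by 0.65 ± 0.05 and 0.81 ± 0.06. Shisa9 was lower, at -0.28 ± 0.04 and -0.30 ± 0.05. Gria1 was below Input in the cytosolic fraction (-0.19 ± 0.03) and above it in the membrane fraction (0.35 ± 0.03). Gria3 was at -0.01 ± 0.04 in the cytosolic fraction (adjusted p = 0.875), and all others passed an adjusted p of 0.05, 7 of 8 (85.1% of all genes) in the cytosolic fraction and 8 of 8 (75.5%) in the other. Of the 6 TARPs 2 were called higher in each fraction and none lower (medians 0.54 and 0.65): Cacng2 at 1.91 ± 0.04 and 1.93 ± 0.05 and Cacng8 at 1.46 ± 0.06 and 1.96 ± 0.07. Cacng3 was at 0.93 and 0.61 and Cacng7 at 0.15 and 0.70, whereas Cacng4 (-0.83 and -0.29) and Cacng5 (-0.24 and -0.27) lay below Input. The scaffold gene Dlg4 (PSD-95) was at 1.25 ± 0.05 and 1.45 ± 0.06, and Nptx2 at 1.35 ± 0.06 and 1.28 ± 0.05, each the 1 gene called higher of its list (of 11 scaffold and trafficking genes and of 3 pentraxins) in both fractions.

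Set directly against the Camk2a capture, the pS6 capture divided the members into 2 sets in both fractions, all 16 differences having an adjusted p under 0.05 (89.8 and 82.3% of all genes). Gria4, Cnih2, Cnih3 and Shisa6 were higher, by 0.88 ± 0.05, 1.32 ± 0.04, 1.20 ± 0.03 and 0.61 ± 0.05 in the cytosolic fraction and by 0.64 ± 0.05, 0.88 ± 0.04, 0.50 ± 0.03 and 0.41 ± 0.04 in the membrane fraction. Gria1, Gria2, Gria3 and Shisa9 were lower, with values between -0.63 and -0.42 in cytosolic and between -0.59 and -0.40 in membrane libraries. Each difference of these 16 had its direction in 30 of 30 mice. Cnih2 and Cnih3 reached the fold of 2 in the cytosolic fraction (22.3% of all genes were called higher) and no member did in the membrane fraction (16.5%). The all-gene medians were 0.07 and 0.09, and library sizes alone moved both to 0.23 and upper quartile scaling moved them to 0.28 and 0.19. The 2 sets had the same directions under both scalings. Against Input, upper quartile scaling put Cnih3 in cytosolic Camk2a at -0.00055, and Gria3 in cytosolic pS6 was at 0.06 with upper quartile scaling and -0.08 with library sizes alone.

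Cell-type markers moved with these differences. Inhibitory-neuron markers were called higher in pS6 than in Camk2a for 10 of 11 in cytosolic and 7 of 11 in membrane libraries (medians 3.44 and 1.85), astrocyte markers for 6 and 3 of 7, microglial markers for 5 and 4 of 6, oligodendrocyte markers for 5 and 0 of 6, oligodendrocyte precursor markers for 4 and 2 of 5 and vascular markers for 5 and 2 of 5. Blood markers were called higher for 3 of 3, choroid plexus markers for 2 of 3 and CA3 and CA2 markers for 2 of 6 in both fractions. Called lower were 3 and 2 of 5 CA1 markers, 4 and 2 of 6 dentate granule markers and 1 of 5 excitatory markers in both. Summed inhibitory markers lay between 1231 and 1785 CPM in cytosolic pS6 and between 515 and 811 CPM in cytosolic Camk2a libraries. In cytosolic Input these markers lay between 919.6 and 1188 CPM, below every cytosolic pS6 library. Cnih2 and Cnih3 were higher in pS6 than in Input as well. In that comparison 1 of 11 inhibitory markers was called higher in each fraction. Also called higher were 3 of 3 blood, 2 of 3 choroid plexus and 2 of 6 CA3 and CA2 markers. No astrocyte, oligodendrocyte, microglial or vascular marker was called higher. The part of cell-type markers in the members' differences from Camk2a or from Input was not tested.

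**Figure D3:**
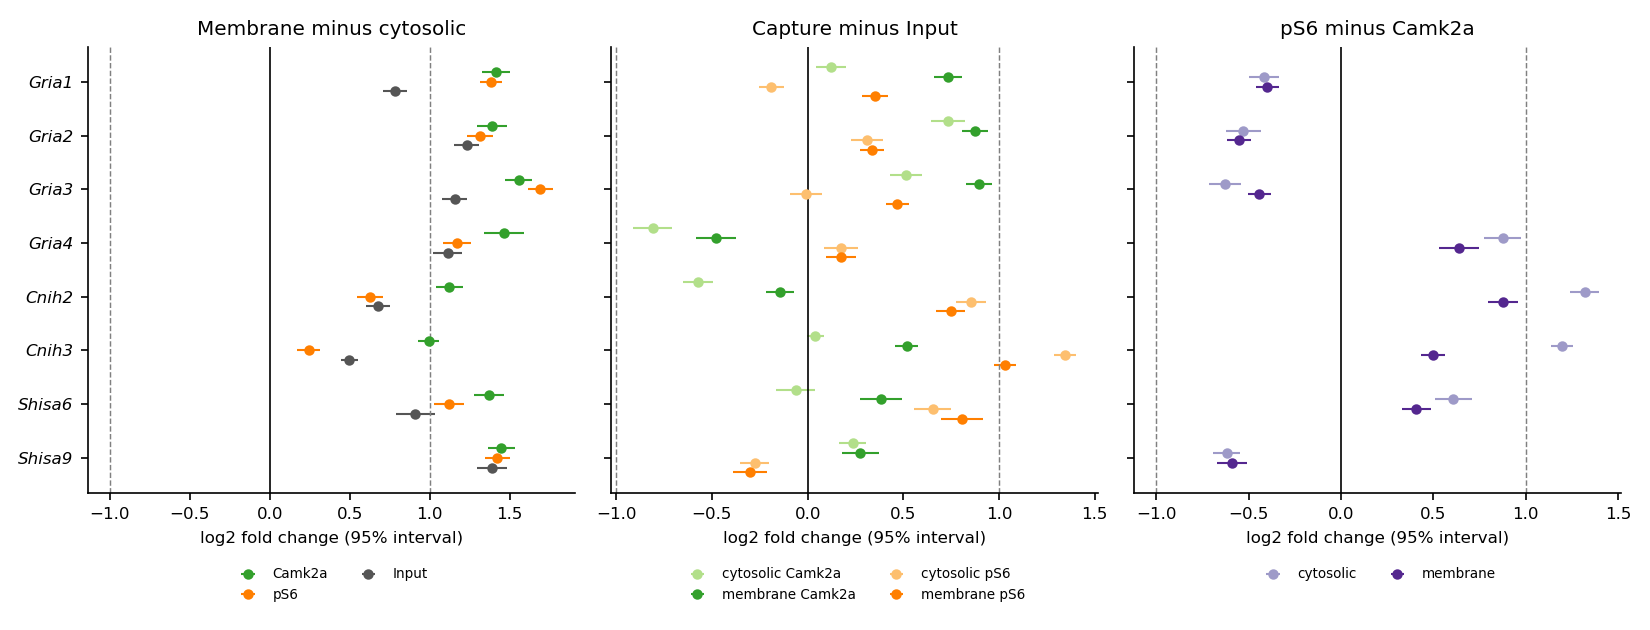
Log2 fold changes with 95% intervals for the 8 genes, membrane minus cytosolic, capture minus Input and pS6 minus Camk2a, with dashed lines at a fold of 2. Every fraction difference is above 0, and in pS6 minus Camk2a the cornichons, Gria4 and Shisa6 lie above 0 and Shisa9 with the other subunits below it.

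Whether each capture differed from Input equally in both fractions was tested as a difference of differences. For Camk2a it was larger in the membrane fraction by 0.50 ± 0.06 for Gria1, 0.36 ± 0.04 for Cnih3, 0.33 ± 0.08 for Shisa6, 0.32 ± 0.06 for Cnih2, 0.27 ± 0.06 for Gria3 and 0.22 ± 0.08 for Gria4. These 6 of 8 had an adjusted p under 0.05, as did 56.2% of all genes, and none reached a fold of 2 (7.56% of all genes did upwards and 0.651% downwards). For Gria2 it was 0.03 ± 0.06 (adjusted p = 0.724) and for Shisa9 -0.07 ± 0.06 (adjusted p = 0.332). For pS6 it was 0.60 ± 0.05 for Gria1, 0.53 ± 0.06 for Gria3, 0.21 ± 0.08 for Shisa6 and -0.26 ± 0.05 for Cnih3, 4 of 8 (47.7% of all genes), none with a fold of 2 (3.51% upwards and 0.638% downwards). Gria1 thus had an adjusted p under 0.05 in both captures, and Cnih3 had opposite signs in them.

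Sleep deprivation was compared with sleep averaged over trained and untrained mice, to see whether AMPA receptor transcripts follow sleep loss. None of the 48 differences (8 genes in 6 library types) passed an adjusted p of 0.05, and they ran from -0.18 to 0.21. The shares of all genes that passed in cytosolic and membrane libraries were 6.28 and 2.97% for Camk2a, against 7.88 and 1.73% for pS6 libraries and 3.17 and 1.37% for uncaptured Input. An unadjusted p was under 0.05 for 3 of the 48. The 95% bounds of all 48 lay between -0.29 and 0.32, so larger differences lay outside every interval.

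Closest to the threshold were Gria4 and Shisa9 in membrane pS6. Gria4 was at 54.2, 59.5 and 67.8 CPM (lowest, median, highest) in NoCFC Sleep and at 69.2, 71.0 and 86.4 CPM in NoCFC SD. It was at 63.4, 73.0 and 81.8 CPM in CFC Sleep and at 53.7, 81.9 and 102.7 CPM in CFC SD. Sleep-deprived and sleeping mice did not overlap without training (0.162% of all genes were likewise higher without overlap) and overlapped with it, and 13 of 14 sleep-deprived mice stood above the sleep median of their own training arm. The difference was 0.21 ± 0.06 (adjusted p = 0.0558), and 0.26, 0.12 and 0.27 within mice 1 to 11, 12 to 22 and 23 to 30. With DESeq2 its adjusted p was 0.0282 and with the run of mouse numbers as a term 0.0403. In cytosolic pS6 Gria4 was at 0.18 ± 0.06 (adjusted p = 0.0653), with 12 of 14 deprived mice over the sleep median of their arm.

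Shisa9 leaned the other way. In membrane pS6 it was at 68.2, 84.5 and 90.0 CPM in NoCFC Sleep against 62.1, 73.8 and 90.6 CPM in NoCFC SD, and at 83.2, 93.7 and 128 CPM in CFC Sleep against 71.9, 87.8 and 93.6 CPM in CFC SD. Both pairs of groups overlapped, and 1 of 14 sleep-deprived mice stood above the sleep median of its arm. The difference was -0.18 ± 0.05 (adjusted p = 0.0553). It was -0.17, -0.20 and -0.11 within the 3 runs, and its adjusted p was 0.0302 with DESeq2, 0.0353 with the run as a term and 0.0331 with upper quartile scaling.

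Markers of inhibitory neurons moved with sleep loss in the same libraries: 4 of 11 were higher with SD in membrane pS6 (median 0.19) and 9 of 11 in cytosolic pS6 (median 0.34), while 3 and 2 of 5 excitatory markers were lower. None of these lists had a member past the test in Camk2a or Input. Their part in the Gria4 and Shisa9 values was not tested.

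Tests of whether the sleep effect differed between library types found no member. These were 16 differences of pS6 from Camk2a (lowest adjusted p = 0.607; 0.586 and 0.0589% of all genes passed in the cytosolic and membrane fractions), 24 of membrane from cytosolic (0.0% of all genes) and 32 of capture from Input. The last were added after the data were seen, and 0.0122 and 0.0% of all genes passed for Camk2a and 0.672 and 0.111% for pS6. The largest was Gria4 in cytosolic pS6 against Input, 0.26 ± 0.09 (adjusted p = 0.277; 0.508% of all genes were called higher). With each mouse as a block it was 0.24 with an adjusted p of 0.0441 (1.44% of all genes higher). The difference in the sleep effect between trained and untrained mice did not pass for any of the 48 (range -0.23 to 0.30, lowest adjusted p = 1.00, 1 of 48 with an unadjusted p under 0.05), and 0.0% of all genes passed that test.

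Of the other genes of the pathway, Nptx2, an activity-induced pentraxin that clusters AMPA receptors, rose with sleep deprivation by 0.68 ± 0.09 in cytosolic pS6 (adjusted p = 1.55e-06) and by 0.61 ± 0.06 in membrane pS6 (adjusted p = 2.98e-09). Adar, an editing enzyme, rose by 0.20 ± 0.05, 0.18 ± 0.06 and 0.22 ± 0.04 in cytosolic Camk2a, pS6 and Input. Dlg1, the scaffold SAP97, rose by 0.20 ± 0.06 in cytosolic pS6 (adjusted p = 0.0314). No TARP (0 of 6) and no other auxiliary or biogenesis gene (0 of 10) passed in any library type.

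**Figure D4:**
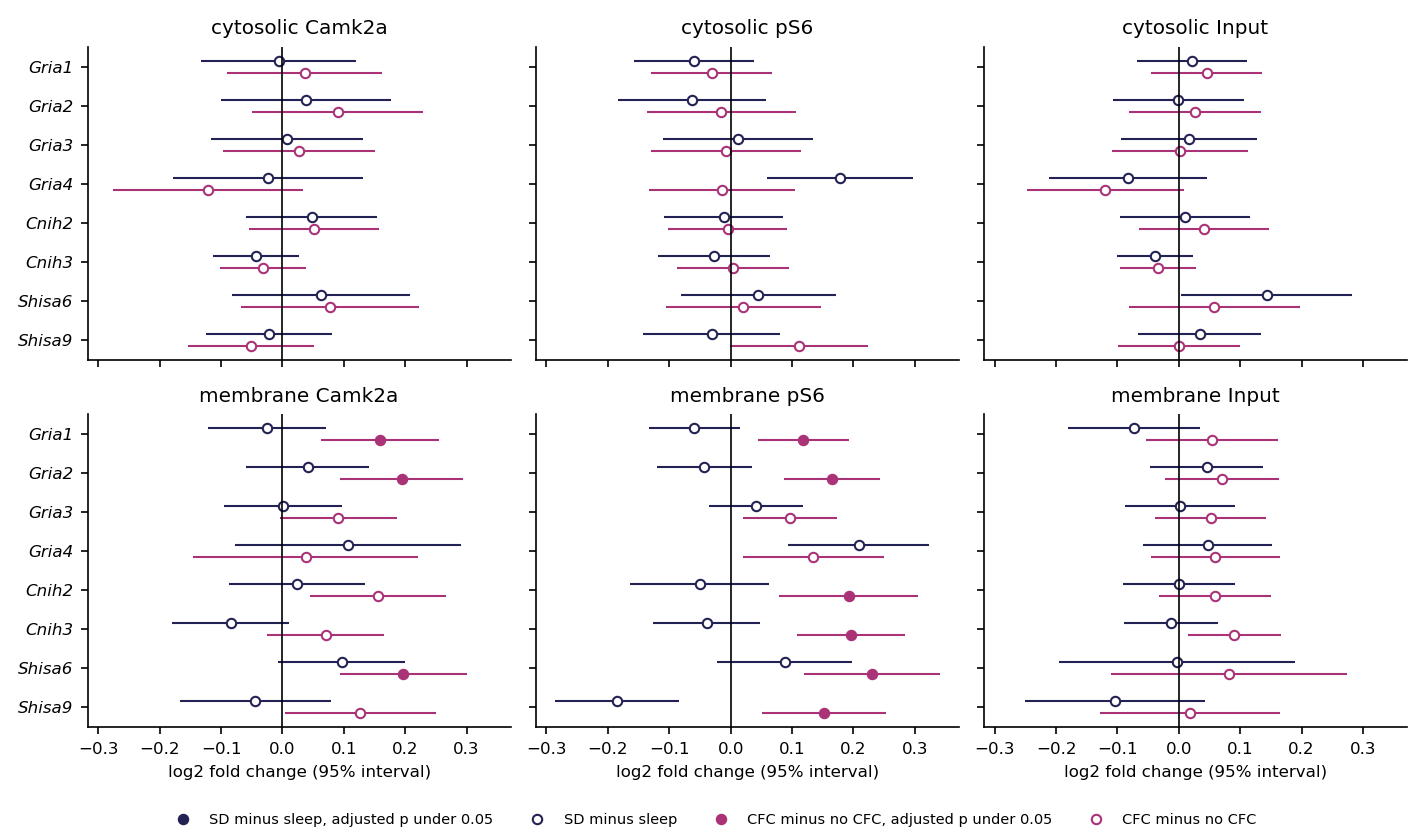
Log2 differences with 95% intervals for sleep deprivation against sleep and for conditioning against no conditioning, for each of the 8 genes in 6 library types. Filled points passed an adjusted p of 0.05. Sleep differences lie between -0.18 and 0.21 with none filled, and the 9 filled points are conditioning differences in membrane Camk2a and membrane pS6.

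Conditioned and untrained mice differed in the membrane captures. In membrane pS6 6 of 8 members were higher in CFC than in NoCFC mice, beside 8.1% of all genes higher and 8.75% lower: Shisa6 by 0.23 ± 0.06 (adjusted p = 0.0039), Cnih3 by 0.20 ± 0.04 (0.00203), Cnih2 by 0.19 ± 0.06 (0.0177), Gria2 by 0.17 ± 0.04 (0.00331), Shisa9 by 0.15 ± 0.05 (0.0375) and Gria1 by 0.12 ± 0.04 (0.0247). Gria3 was at 0.10 ± 0.04 (adjusted p = 0.0861) and Gria4 at 0.13 ± 0.06 (adjusted p = 0.113). In membrane Camk2a 3 of 8 were higher, beside 9.81% of all genes higher and 7.17% lower: Shisa6 by 0.20 ± 0.05, Gria2 by 0.19 ± 0.05 and Gria1 by 0.16 ± 0.05. No member passed in membrane Input (6.53% of all genes in either direction) or in cytosolic Camk2a, pS6 or Input (0.148, 0.133 and 0.219%).

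Training and the run of mouse numbers cannot be told apart for 22 of the 30 mice. A fit with the run as a term therefore takes the training difference from mice 23 to 30 alone. Calls lost in that fit cannot tell training from run. With the run as a term, no member passed in either membrane capture: in membrane pS6 Shisa6 was at 0.34 (adjusted p = 0.211), Gria2 at 0.29 (0.141), Gria1 at 0.22 (0.223), Shisa9 at 0.06 (0.944), Cnih2 at 0.05 (0.958) and Cnih3 at 0.05 (0.937). In membrane Camk2a Gria2 was then at 0.28 (adjusted p = 0.467), Gria1 at 0.22 (0.551) and Shisa6 at 0.22 (0.591). All genes called there went from 2542 to 1, and in membrane pS6 from 2803 to 12. Mice 1 to 22 by themselves gave 1 of 8 members higher in membrane Camk2a (Shisa6; 9.31% of all genes) and 3 of 8 in membrane pS6 (Cnih2, Cnih3 and Shisa9; 8.4% of all genes). Mice 23 to 30 by themselves gave no member in either, where 2 and 3 genes passed in all (0.0134 and 0.0184%), so the absence of members there carries no information.

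Within mice 23 to 30, where both training arms share a run, 4 of 8 members were higher in CFC than in NoCFC mice without overlap in membrane pS6, beside 4.31% of all genes (1.08% were lower without overlap). The members were read in the same 8 libraries, and whether they differ from each other was not tested. Gria1 was between 1221 and 1351 CPM in the 4 NoCFC mice and between 1498 and 1596 CPM in the 4 CFC mice. Gria2 was between 1123 and 1283 against 1475 and 1567 CPM, Gria3 between 236 and 259 against 282 and 317 CPM, and Shisa6 between 234 and 278 against 312 and 368 CPM. The arms of Cnih2 (2208 to 3398 against 2794 to 3490 CPM), Cnih3 (315 to 401 against 357 to 440 CPM), Shisa9 and Gria4 overlapped. Gria1, Gria2, Gria3 and Shisa6 also did not overlap in membrane Camk2a, with Gria2 at 1699 to 1829 against 2154 to 2248 CPM. Nor did Gria2 (787.8 to 936.6 against 948.1 to 1153 CPM) and Gria3 (148.7 to 176.6 against 184.4 to 212.2 CPM) in uncaptured membrane Input. The other members overlapped there. The share of all genes without overlap was not counted in membrane Camk2a or membrane Input, so no result about the members can be drawn from them. Over all runs, the CFC mice above the NoCFC median of their sleep arm in membrane pS6 numbered 15 of 15 for Gria2 and Cnih3, 14 for Gria1, Gria3, Gria4 and Cnih2, and 13 for Shisa6 and Shisa9. In membrane Input, where no member passed, they numbered 14 of 15 for Gria2, Cnih2 and Cnih3 and 11 or 12 for the others. These counts share the overlap of training with the run of mouse numbers, and the shares of all genes were not counted.

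**Figure D5:**
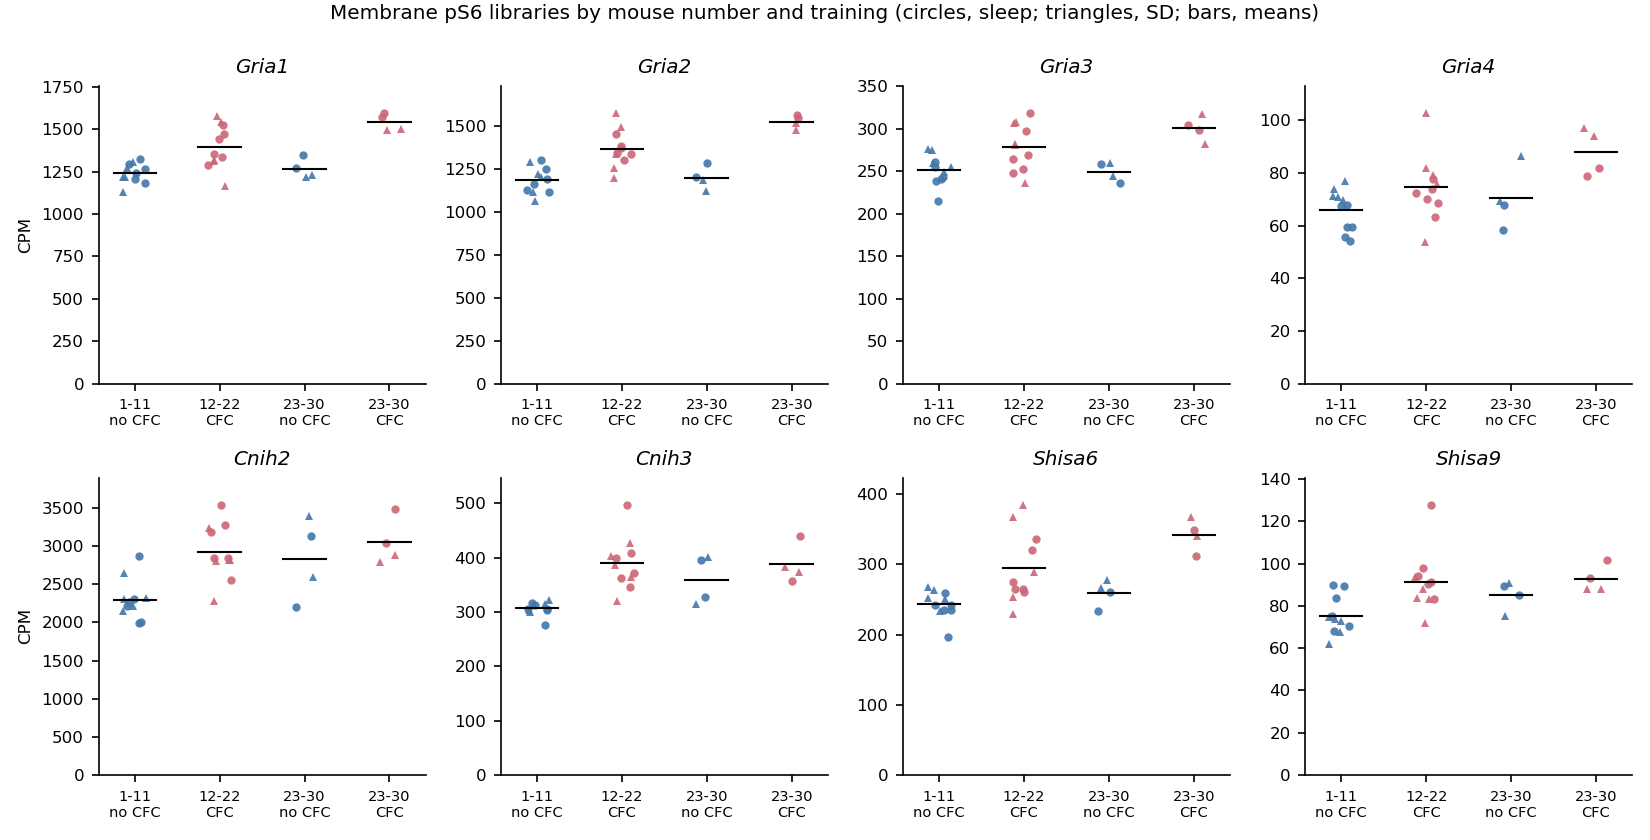
Levels of the 8 genes in membrane pS6 libraries (CPM) by run of mouse numbers and training, 1 point per mouse, bars for means. In mice 23 to 30 the CFC points of Gria1, Gria2, Gria3 and Shisa6 lie above all NoCFC points, and those of Cnih2, Cnih3, Shisa9 and Gria4 overlap them, where 4.31% of all genes lie above without overlap.

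Other lists moved with training in the same membrane captures. All 3 pentraxins were higher with CFC in both, with Nptx2 at 0.40 ± 0.06 in membrane pS6 and 0.31 ± 0.07 in membrane Camk2a, and of the trafficking and scaffold genes 3 of 11 in Camk2a and 4 of 11 in pS6 were lower. Of the TARPs 1 of 6 was higher in each, Cacng5 at 0.38 ± 0.09 in Camk2a and Cacng3 at 0.16 ± 0.05 in pS6. These counts share the overlap of training with the run of mouse numbers. Microglial markers were higher for 4 of 6 in membrane Camk2a and 2 of 6 in membrane pS6, and astrocyte markers for 3 of 7 and 0 of 7. Scaling factors averaged 0.991 and 0.981 in the NoCFC Sleep and NoCFC SD libraries of membrane pS6 against 0.920 and 0.902 in CFC Sleep and CFC SD, and library sizes alone left 4 of the 6 members past the test, without Gria1 and Shisa9. All genes called higher and lower then went from 1348 and 1455 to 946 and 1834 in membrane pS6, and from 1469 and 1073 to 1140 and 1587 in membrane Camk2a. The part of markers and scaling was not otherwise tested. Without the membrane Input libraries of mice 16, 22 and 30, Shisa6 was at 0.22, Gria1 at 0.13 and Shisa9 at 0.13 in membrane Input and the 3 passed (3.57% of all genes higher). These libraries are all from CFC mice and hold low values of the same 3 genes, so leaving them out raises the CFC mean by construction, and the calls are no evidence of a training difference.

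Likeness of pattern was measured as the root mean square difference of mean log2 CPM over the 24 combinations of library type and group, after each gene's own mean was taken off, among 9556 genes. Among members, Gria2 and Gria3 were closest (0.135), then Gria1 and Gria3 (0.191) and Gria1 and Gria2 (0.207), while Cnih2 and Cnih3 stood at 0.296 and Cnih3 and Shisa9 at 0.821. The nearest other genes were picked as the closest of 9556 candidates, so their distances are not comparable with those among members. They were Nell2 (0.0695) and Nell1 (0.0733) for Gria2, Clstn2 (0.0765) and Itga4 (0.0807) for Gria1, and Chl1 (0.0935) and Plxna2 (0.0945) for Gria3. For Gria4 they were Yif1a (0.1) and Cnih4 (0.125), for Cnih2 Fam19a5 (0.112) and Lrrc10b (0.114), and for Cnih3 Tmem234 (0.0906) and Abhd14a (0.123). Shisa6 was nearest to St8sia1 (0.107) and Adora1, and Shisa9 to Mcoln1 (0.0798) and Atp9a (0.0827).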

How the data were processed

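RNA was measured in 180 libraries (30 mice, 6 library types), made with the SMART-seq v4 kit per the labels' protocols. The authors deposited 1 table of whole-number read counts per gene. Reads were aligned with STAR 2.6.1a to GRCm38.p6, counted with featureCounts and summarised with MultiQC 1.6a0, per the submitters' processing notes; the annotation release and strand setting used in counting are not given in the sources used here. Libraries held 11.98 to 26.95 M (mega) counts. Whether PCR duplicates were removed is not given in the sources used here.

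The 8 members and all gene lists were chosen with earlier results of these data known. Genes were filtered with filterByExpr, scaled by TMM and tested with edgeR 4.0.16 (quasi-likelihood F-test, robust; R 4.3.3, limma 3.58.1), with Benjamini-Hochberg adjustment over all genes tested and a threshold of 0.05; comparisons of fractions and captures also required a fold of 2. Standard errors were taken from the log2 fold change and the F statistic. Groups came from titles and characteristics; mice are separate animals. Tests of each library type used 30 libraries and no mouse block. The main tests between library types, of fractions and captures, also had no mouse block. Their standard errors therefore do not use the pairing of libraries from the same mouse, which the mouse block among the alternatives does. The mouse number in the titles and the protocol, which splits each homogenate into 6 libraries, tie libraries to mice: deviations from group means correlated at a median of 0.107 for libraries of 1 mouse and -0.0168 for different mice, over 0.1 in 243 of 450 pairs.

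Alternatives were DESeq2 1.42.0, upper quartile scaling, library size alone, no filter, the run of mouse numbers as a term, leaving out mice 23 to 30, a mouse block and a test against the fold. Those for transcript length, mice 23 to 30 by themselves, conditioning without mice 23 to 30, the 4 Input libraries and the sleep effect of a capture against Input were added after the data were seen. Per-kilobase levels used exon-union lengths from the GENCODE annotation of GRCm38; sequences came from its transcripts. Scripts were tested on simulated counts. Outside the members, named genes were any TARP and up to 3 genes per list with the smallest adjusted p, and for likeness the 2 nearest genes with a mean log2 CPM of at least 3.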

Additional observations from a re-analysis of the deposited data

Results flagged for a closer look

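Of 192 sets of levels (a member in 1 library type and group), 14 had a sample far from its group, where chance gives about 1 in 20. Mouse 16 (CFC Sleep) was lowest in membrane Input for Gria1 (805 CPM, next 1017), Shisa6 (96.2, next 158) and Shisa9 (70.9, next 102). Mouse 2 (NoCFC Sleep) was lowest for Cnih2 in cytosolic pS6 (1419, next 1694) and for Cnih3 in cytosolic Camk2a (120, next 135) and cytosolic pS6 (238, next 296). Mouse 28 (NoCFC SD) was highest for Gria4 in cytosolic pS6 (47.6, next 36.4) and cytosolic Input (34.7, next 28.9), and mouse 27 (NoCFC SD) for Cnih2 (3398, next 2646) and Cnih3 (401, next 323) in membrane pS6. Single cases were Gria1 in cytosolic Input of mouse 19 (CFC SD, 485, next 578), Cnih3 in membrane pS6 of mouse 23 (NoCFC Sleep, 396, next 328), Shisa6 in membrane pS6 of mouse 6 (NoCFC Sleep, 197, next 234) and Shisa9 in membrane pS6 of mouse 13 (CFC Sleep, 128, next 102).

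The difference between a capture and Input was itself different between the fractions for 10 of 16 values. For Camk2a the difference of differences (membrane minus cytosolic, log2) was 0.50 for Gria1, 0.27 for Gria3, 0.22 for Gria4, 0.32 for Cnih2, 0.36 for Cnih3 and 0.33 for Shisa6. For pS6 it was 0.60 for Gria1, 0.53 for Gria3, -0.26 for Cnih3 and 0.21 for Shisa6.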

How the results depend on the processing

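Of 1880 values of single members under the alternatives, 1719 kept their direction and their side of the threshold, 108 changed sign with neither value passing, 33 lost and 18 gained a call, and 2 changed sign where a value passed. With library sizes alone, Camk2a against Input in the cytosolic fraction turned for Gria1 (0.12 to -0.014) and Cnih3 (0.04 to -0.10), members called higher in membrane than in cytosolic Input went from 4 to 1, and Cnih2 was called in membrane pS6 against Camk2a (1 member). With the run of mouse numbers as a term, members called for conditioning went from 3 to 0 in membrane Camk2a and from 6 to 0 in membrane pS6, and 0 and 0 with mice 23 to 30 by themselves. Both settings take the training difference from mice 23 to 30 alone, so they are not separate checks. Without mice 23 to 30 they were 1 and 3. Sleep deprivation in membrane pS6 called 2 members with DESeq2, 2 with the run as a term and 1 with upper quartile scaling, against 0. Without the 4 Input libraries that stand apart, conditioning in membrane Input called 3 against 0, by construction since the 3 removed are CFC libraries with low values of those genes, and no other count of members moved. A test against the fold of 2 left 0 of 1 member for membrane pS6 against Input. The replicate block on mouse number called 1 member, Gria4, for sleep deprivation in cytosolic pS6 against Input, against 0, and changed no other call. Depth limits Gria4 most, with 215 counts in 1 library.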
